A study of Mus musculus with 16 samples.

Results

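The Lgr5-positive cells of the small intestinal crypt were chosen by a single measured value, at least 1 raw Lgr5 count (a UMI, or unique molecular identifier, which marks 1 captured mRNA molecule) in a cell. They numbered 228 of 2597 cells, 119 of 1348 in wild-type (WT) mice and 109 of 1249 in ROBO mice. Single-cell RNA-seq was run on crypt-enriched tissue of untreated outbred mice at postnatal day 16. ROBO mice carry the ROBO Crainbow transgene, which Villin-Cre recombines in the intestinal epithelium so that a cell expresses human RSPO3 or 1 of a pair of PTPRK:RSPO3 fusions, each with its own fluorescent protein (mTFP1, EYFP or mKO). WT mice were the controls, and no transgene has a symbol of its own among the 24421 mouse gene symbols counted. A cell may express any 1 of the transgenes or none, and the counts do not say which. Each genotype has 8 deposited samples but 1 matrix in which cell names do not give the library, so each genotype was treated as 1 sample, with no test of WT against ROBO. No cell name and no column of counts occurs in both matrices (0 shared). Cells are not replicates, and intervals given here are 95% intervals that cover counting error only. The Lgr5 counts themselves are a description with no test.

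Lgr5 is a receptor for R-spondins, secreted proteins that protect Wnt receptors from removal by the ubiquitin ligases Rnf43 and Znrf3 and so raise Wnt signalling. In the mouse small intestine Lgr5 (chromosome 10, 115450311 to 115587780, minus strand, GRCm38) marks the crypt base columnar cells, the cycling stem cells that lie between Paneth cells and give rise to absorptive and secretory lineages. Ascl2, the transcription factor of the crypt base, and Axin2, a feedback inhibitor of Wnt signalling, are Wnt targets in these cells. Sfrp5 encodes a secreted Wnt antagonist, Gkn3 a gastrokine found at the crypt base, and Slc14a1 a urea transporter.

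The promoters of the Wnt targets that accompany Lgr5 were read from RefSeq on the GRCm38.p6 build, since the results below turn on how often these genes were found with Lgr5. The 250 bases before the annotated start are given 5′ to 3′ on the strand of the gene. Ascl2 lies on the minus strand, with the window at chr7:142969265-142969514, and Axin2 on the plus strand, with the window at chr11:108920099-108920348.
Ascl2: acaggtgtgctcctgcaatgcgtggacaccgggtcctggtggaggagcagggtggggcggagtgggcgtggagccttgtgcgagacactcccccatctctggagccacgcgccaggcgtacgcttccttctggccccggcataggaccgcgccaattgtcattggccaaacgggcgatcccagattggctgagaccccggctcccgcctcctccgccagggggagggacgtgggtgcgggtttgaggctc
Axin2: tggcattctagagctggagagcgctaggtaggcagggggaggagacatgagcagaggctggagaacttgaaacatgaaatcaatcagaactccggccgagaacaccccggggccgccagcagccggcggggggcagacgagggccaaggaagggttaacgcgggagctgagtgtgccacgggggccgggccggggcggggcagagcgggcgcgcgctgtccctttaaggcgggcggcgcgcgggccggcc
Searched on both strands, neither window holds CTTTGAT or CTTTGTT, a pair of forms of the motif that TCF factors bind. Of 32851 promoter windows of the same length, 8.06% hold at least 1 of them, 3.21% the first and 5.03% the other. Of the 6 marker genes, 4 had an entry in the promoter table.

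Lgr5 was a sparse transcript. The WT cells held 169 Lgr5 UMIs and the ROBO cells 158, equal to 0.630 (0.539 to 0.733) and 0.651 (0.553 to 0.760) per 10000 UMIs of all cells. In WT, 84 cells had 1 Lgr5 UMI, 25 had 2, 5 had 3 and 5 had 4. In ROBO the numbers were 76, 22, 6 and 5. Most members therefore sat just inside the threshold, 1 UMI away from the cells outside it.

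Of WT cells 8.83% carried Lgr5 (interval 7.37 to 10.5), and of ROBO cells 8.73% (interval 7.22 to 10.4), so the intervals overlap over most of their width. Detection differed with depth. From the shallowest to the deepest of 4 depth classes, Lgr5 was found in 5.49%, 6.87%, 10.4% and 12.8% of WT cells and in 2.81%, 7.99%, 12.5% and 10.7% of ROBO cells, so the deepest ROBO class was not the highest. Members had a median of 2027 UMIs in WT (572 to 11908) and 1914 in ROBO (530 to 7539), against 1443 and 1557.5 in the other cells. Thinned to 912 UMIs a cell, which left out 364 WT and 285 ROBO cells, 5.18% of WT cells (3.88 to 6.76) and 4.77% of ROBO cells (3.51 to 6.31) still had an Lgr5 UMI. Members were therefore compared with 3 Lgr5-negative cells of the same genotype with the nearest total UMIs per member (the matched cells), except where other cells are named. The matched cells were 357 in WT (median 2023 UMIs) and 327 in ROBO (median 1908).

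Lgr5-positive cells were placed mainly among crypt cells when all 2597 cells were clustered on genes other than Lgr5. Of the 13 clusters, 4 were of crypt type by stem cell and transiently amplifying markers, and they held 106 of 119 WT members (89.1%, 82.0 to 94.1) and 86 of 109 ROBO members (78.9%, 70.0 to 86.1). The other cells were there in 52.6% and 50.8%. Without thinning, the richest cluster was cluster 3, led by Igfbp4, Tspan12, Cym and Slc12a2, with 62 members among 328 cells (18.9%). Next was cluster 0, led by Sfrp5 and the cell cycle genes Ccna2 and Birc5, with 69 among 403 (17.1%). The shallower crypt clusters 1 and 2 held 9.17% and 8.58%. Median depth was 3044 and 2458.5 UMIs in clusters 0 and 3, against 931 and 816.5 in clusters 1 and 2. Thinned to 912 UMIs a cell, the order of the shares changed, with intervals that overlap. This thinning left out 201 of the 338 cells of cluster 2 and 168 of the 349 of cluster 1. In clusters 0 and 3 it left out 1 and 13 cells. Cluster 2 then held 10.2% (5.70 to 16.6) and cluster 3 held 9.21% (6.25 to 13.0). Cluster 1 held 8.29% (4.71 to 13.3) and cluster 0 held 5.97% (3.86 to 8.75).

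**Figure D1:**
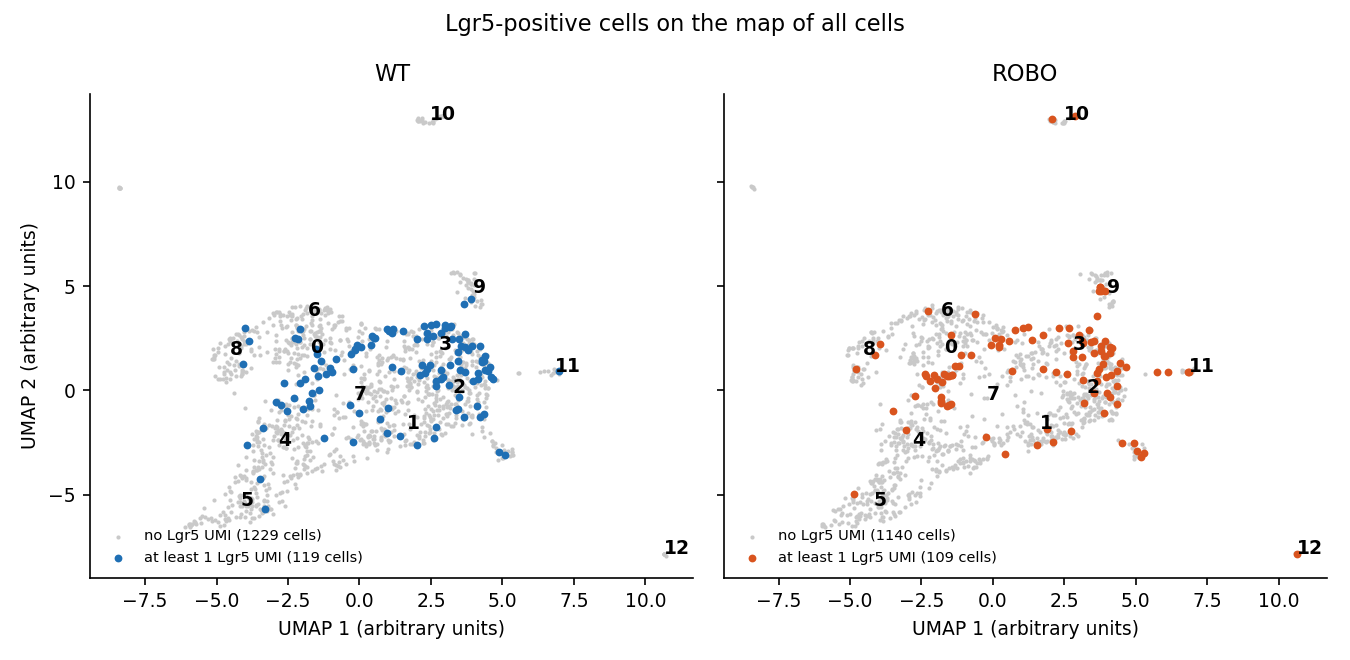
UMAP of all 2597 cells, with Lgr5-positive WT and ROBO cells coloured over Lgr5-negative cells in grey and cluster numbers at the median position of each cluster; the axes have no unit. Of the coloured cells, 106 WT and 86 ROBO cells lie in the crypt-type clusters 0 to 3.

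Fewer Lgr5-positive cells lay in clusters of differentiated cells. At 912 UMIs a cell, Lgr5 was found in 7.92% of crypt-type cells (82 of 1035, median depth before thinning 2127 UMIs) and in 0.732% of enterocyte-like cells (5 of 683, 0.238 to 1.70, median 1969), a cell type that should lack it. The secretory cluster 9, led by Zg16 and Fcgbp, had Lgr5 in 8.79% of cells (8 of 91), and the immune-like cluster in 1 of 36 (2.78%, 0.0703 to 14.5). In clusters other than crypt type, 0.671% of WT cells (3 of 447, 0.139 to 1.95) and 2.58% of ROBO cells (12 of 466, 1.34 to 4.45) carried Lgr5 at this depth. Without thinning, the secretory cluster held 5 WT and 10 ROBO members. None of the 5 WT cells carried another of the stem cell markers (0 of 5), whereas 4 of the 10 ROBO cells did, among them 1 cell with 4 Lgr5, 3 Gkn3 and 2 Sfrp5 UMIs.

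**Figure D2:**
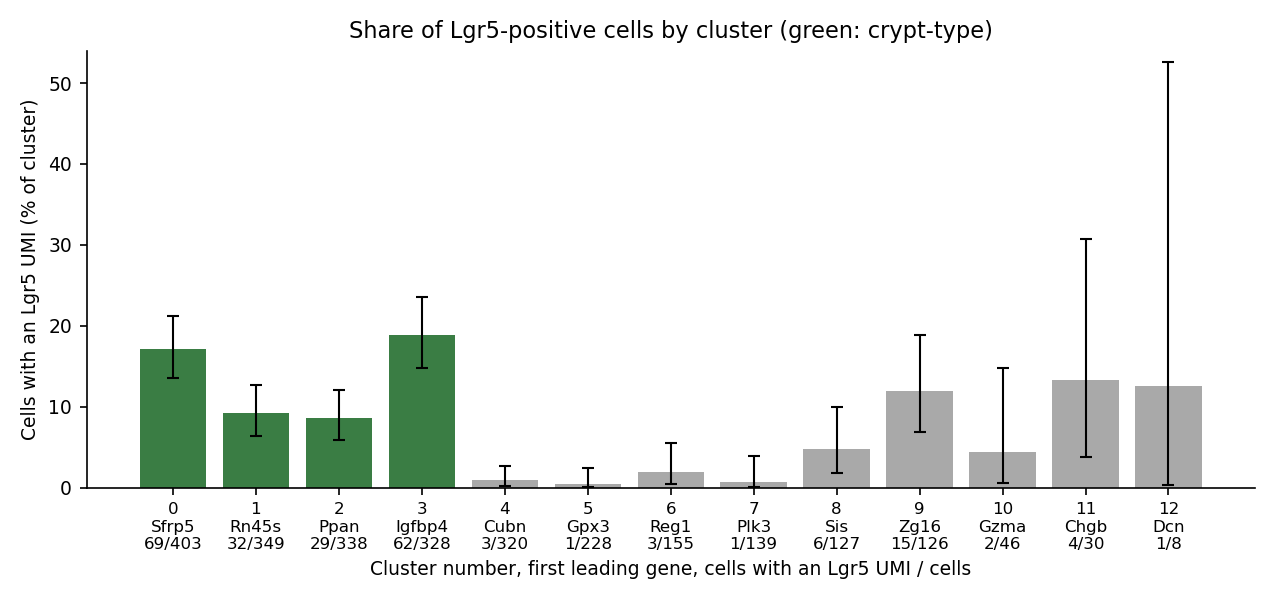
Percent of the cells of each cluster with at least 1 Lgr5 UMI, without thinning to equal depth, with exact 95% binomial intervals and crypt-type clusters in green. The bars of clusters 3 and 0 reach 18.9% and 17.1%, and that of the secretory cluster 9 reaches 11.9%.

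The 5 other stem cell markers, Ascl2, Axin2, Gkn3, Sfrp5 and Slc14a1, were all found more often in Lgr5-positive cells. Together they gave 315 UMIs in WT members, or 10.5 per 10000 against 3.11 in matched cells, a log2 ratio of 1.75 (1.51 to 1.99). In ROBO they gave 198 UMIs, or 7.76 against 3.89 per 10000, a log2 ratio of 0.99 (0.73 to 1.26). A WT member had a median of 2 UMIs of these 5 genes (at most 19) and a ROBO member 1 (at most 7), while the median matched cell had 0 in both genotypes. At least 1 of the 5 was found in 87 of 119 WT members (73.1%) and 79 of 109 ROBO members (72.5%), against 36.7% and 43.7% of matched cells. At least 2 were found in 41.2% and 32.1%, against 8.68% and 11.6%.

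Of these 5 genes, Axin2 was found with Lgr5 most often. It gave 147 UMIs in 67 of 119 WT members and 100 UMIs in 61 of 109 ROBO members, with log2 ratios to matched cells of 1.17 (0.85 to 1.49) and 0.71 (0.34 to 1.07). Ascl2 was carried by 31 WT members (26.1%, against 9.24% of matched cells) and by 25 ROBO members (22.9% against 11.9%), with log2 ratios of 1.35 (0.71 to 1.99) and 0.94 (0.32 to 1.55). Sfrp5 and Gkn3 were in fewer members than Axin2 but had larger ratios. Sfrp5 was in 19.3% of WT members against 2.24% of matched cells (log2 ratio 3.75, 2.75 to 4.90), and in ROBO in 16.5% against 3.36% (1.98, 1.04 to 2.95). Gkn3 was in 20.2% against 3.08% in WT (3.60, 2.71 to 4.60) and in 14.7% against 5.81% in ROBO (1.37, 0.45 to 2.28). Slc14a1 had 27 UMIs in 16 WT members and 14 UMIs in 10 ROBO members, and matched cells carried it in 2.80% and 2.14%.

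These counts are read against the whole transcriptome. Among genes with at least 30 UMIs over members and matched cells, 341 of 6601 in WT (5.17%) and 397 of 6157 in ROBO (6.45%) were at least 2-fold higher in members. At least 2-fold lower were 537 genes in WT (8.14%) and 545 in ROBO (8.85%). The median gene stood at a log2 ratio of 0.04 in WT and 0.09 in ROBO, and 53.1% and 55.5% of genes were higher in members by any amount. Against cluster neighbours, used further on, these shares were 49.3% and 51.6%. Of the 5 stem cell markers, 5 of 5 passed the 2-fold line in WT and 2 of the 4 with enough UMIs in ROBO. Genes that reach 30 UMIs mainly through the members are favoured by this filter, so the counts are descriptions.

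**Figure D3:**
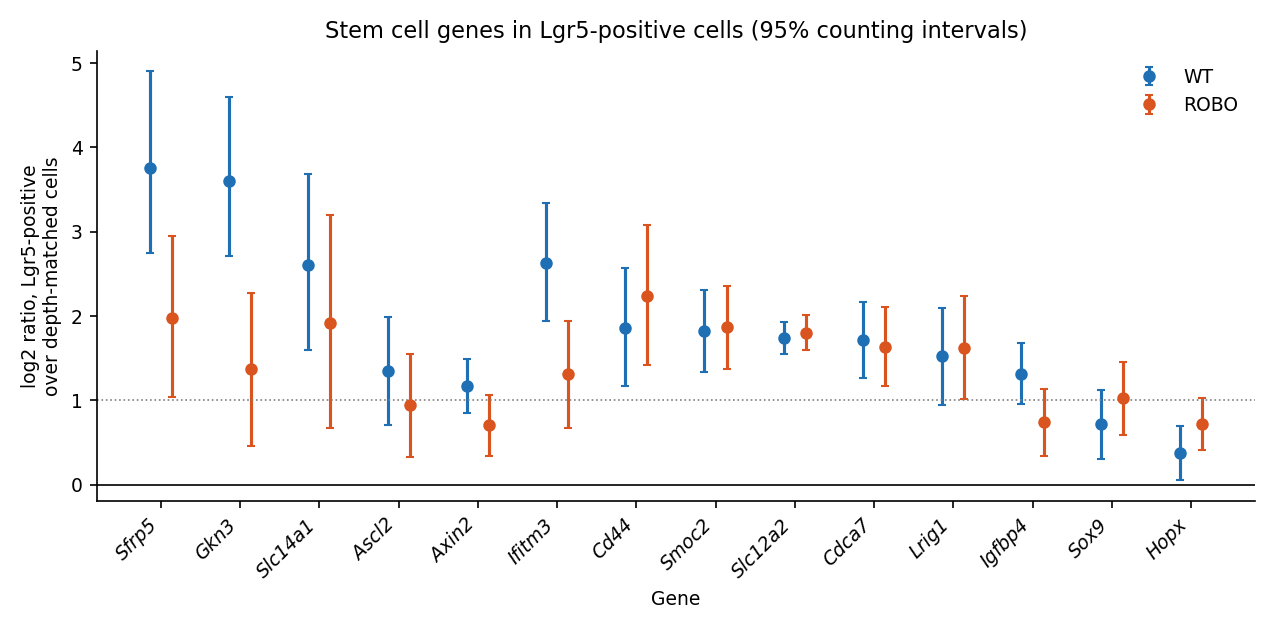
Log2 ratio of UMIs per 10000 in Lgr5-positive cells to depth-matched Lgr5-negative cells for 14 stem cell genes in WT and ROBO, with 95% counting intervals and a line at equal levels. Gkn3 and Sfrp5 stand at 3.60 and 3.75 in WT and at 1.37 and 1.98 in ROBO, while Smoc2 and Slc12a2 have nearly equal ratios in both genotypes.

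A wider list of 24 intestinal stem cell genes showed the same direction. All 17 with at least 30 UMIs in WT and all 16 in ROBO were higher in Lgr5-positive cells, 10 and 9 of them at least 2-fold, with median log2 ratios of 1.32 and 1.14. Summed over the list, members held 48.1 per 10000 in WT and 49.6 in ROBO, against 19.7 and 20.2 in matched cells. Slc12a2, a sodium-potassium-chloride cotransporter, was the most broadly detected, in 100 of 119 WT and 91 of 109 ROBO members. Its median was 2 UMIs a cell in WT members and 3 in ROBO members, and 0 in matched cells, with log2 ratios of 1.74 (1.54 to 1.94) and 1.80 (1.60 to 2.01). Smoc2, a matricellular protein of the crypt base, was in 41.2% and 46.8% of members against 12.3% and 13.8% of matched cells, with log2 ratios of 1.82 and 1.86.

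Surface proteins of crypt base cells were part of this list. Cd44, a hyaluronan receptor and Wnt target, had log2 ratios of 1.86 in WT and 2.23 in ROBO, and Lrig1, a restrainer of ErbB receptors, 1.52 and 1.63. Prom1 stood at 1.29 and 1.24, and Rgmb, a BMP co-receptor, at 1.64 and 1.77. Ephb2 and Ephb3, receptors that position cells along the crypt, had smaller ratios of 0.64 and 0.80 in WT and 0.64 and 0.63 in ROBO, with intervals that include 0. Hopx, a marker of slow-cycling crypt cells, stood at 0.38 (0.05 to 0.69) and 0.73 (0.41 to 1.03). Olfm4 was rare in these cells, with 9 UMIs in the members of each genotype, and Tert gave 0 UMIs in members and matched cells.

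Genes of Wnt signalling were also higher in the Lgr5-positive cells, by less than the stem cell genes. Of 19 Wnt feedback genes and targets, 11 of 12 with enough UMIs were higher in WT and 12 of 13 in ROBO, 5 and 4 of them at least 2-fold, with median log2 ratios of 0.85 and 0.71. Rnf43, the ubiquitin ligase that removes Wnt receptors, was at 1.13 (0.68 to 1.57) in WT and 0.71 (0.13 to 1.26) in ROBO. Myc stood at 0.90 (0.39 to 1.40) in WT and 0.33 (-0.33 to 0.95) in ROBO, and the cyclin Ccnd2 at -0.07 and 0.69. Lgr4, another R-spondin receptor of the crypt, was higher in both genotypes (0.93 and 0.92), as was the Wnt co-receptor Lrp6 (1.40 and 1.23), whereas Fzd5 was at -0.28 and 0.07. In the Notch pathway the receptor Notch1 had ratios of 1.06 and 1.18 and its target Hes1 0.75 and 0.56. The ligand Dll1 had -0.77 (-2.08 to 0.34) and -0.64 (-1.79 to 0.37), intervals that include 0, on 8 and 10 UMIs in members. The BMP targets Id1 and Id3 were close to matched cells in WT (-0.17 and -0.08) and lower in ROBO members (-0.65, -1.13 to -0.20, and -0.84, -1.28 to -0.43). The wider stem, Wnt and S phase lists share some genes, and the Wnt list also holds Axin2, Ascl2 and Sfrp5, which are 3 of its 5 genes past 2-fold in WT, so the lists are not separate lines of evidence.

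Cell cycle genes were higher in Lgr5-positive cells than in matched cells. Of 30 S phase genes with enough UMIs, 28 were higher in each genotype, with median log2 ratios of 0.70 in WT and 0.54 in ROBO and summed levels of 37.2 and 37.2 per 10000 against 22.9 and 22.5. Among G2/M genes 37 of 42 were higher in WT and 34 of 36 in ROBO, with medians of 0.32 and 0.71. Pcna, the replication clamp, stood at 0.61 and 0.79 and Top2a, which untangles replicated DNA, at 0.90 and 0.71. In cells thinned to 912 UMIs, at least 5 S phase UMIs were found in 28.3% of WT members against 11.4% of matched cells, and in 26.7% against 13.2% in ROBO. All 14 transiently amplifying markers were higher in members of both genotypes, at medians of 0.57 and 0.66. Ribosomal protein genes were higher by a small amount, 78 of 79 of them in each genotype at medians of 0.36 and 0.38.

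Genes of differentiated enterocytes were low in the Lgr5-positive cells. Of 17 middle and top enterocyte markers, none was higher in members (0 of 17 in each genotype), 14 were at least 2-fold lower in WT and 17 in ROBO, and the medians were -2.27 and -2.24. Their summed level was 61.0 per 10000 in WT members and 72.2 in ROBO members, against 297 and 405 in matched cells. A single WT member held 897 of the 1836 UMIs of these genes in WT members, and a single ROBO member 413 of 1842. Apoa4, a lipid-carrying apolipoprotein of enterocytes, was at -2.43 (-2.53 to -2.33) and -2.98 (-3.10 to -2.87), and the lactase gene Lct at -2.04 and -3.58. In 1 cell lay 56.3% of the Apoa4 UMIs of WT members, and in 1 cell 22.4% of those of ROBO members. Of the bottom enterocyte markers, 1 of 9 with enough UMIs was higher in WT members and 1 of 8 in ROBO, at medians of -1.51 and -0.93. The antimicrobial lectin Reg3g was at -1.51 and -1.80, and the exception was Nlrp6, an inflammasome sensor, at 0.41 (0.02 to 0.78) and 0.31 (-0.12 to 0.72). Goblet cell genes were lower too by their UMIs, at medians of -2.21 in WT and -1.67 in ROBO, but few cells held many of these UMIs, and 53.6% of the Zg16 UMIs of ROBO matched cells lay in 1 cell. By shares of cells the groups were closer, since the goblet peptide gene Tff3 was in 25.2% of WT members and 24.6% of matched cells, and Spink4 in 21.0% and 14.8%. At 912 UMIs a cell, at least 1 goblet or Paneth UMI was found in 50.5% of WT members against 43.4% of matched cells, and in 56.4% against 44.2% in ROBO.

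Paneth cell genes were high in the summed members, but a few cells held most of these UMIs. The members held 54.2 per 10000 of these genes in each genotype, against 24.8 in WT and 13.8 in ROBO matched cells. A single WT cell held 1448 of the 1630 Paneth UMIs (88.8%), and a single ROBO cell 797 of 1383 (57.6%), while 60 members of each genotype had 0. Within crypt-type clusters, members and other cells had like levels, 4.59 and 4.16 per 10000 in WT and 3.88 and 4.36 in ROBO. Fibroblast and immune markers followed the same pattern in ROBO, where 1 cell held 160 of 161 fibroblast UMIs and another 139 of 147 immune UMIs. WT members had 0 fibroblast and 3 immune UMIs, and 1 WT cell held 184 of the 190 enteroendocrine UMIs. Of 102 MHC class II UMIs in ROBO members 95 lay in 1 cell, against 8 UMIs in all WT members. Members with 0 UMIs of the fibroblast list numbered 119 of 119 in WT and 107 of 109 in ROBO, and of the immune list 117 and 106.

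Over all genes, listed or not, 15 higher and 10 lower ones were taken by how far their interval stood from equality in WT, so some repeat the lists. Of the 15 higher, 11 had at least 30 UMIs in ROBO, and 13 had the same direction and 12 were at least 2-fold higher there, genes under 30 UMIs included. Over the 5909 genes with enough UMIs in both genotypes, 6.02% were at least 2-fold higher in ROBO and 8.43% at least 2-fold lower. Aqp4, a water channel, was in 24 WT and 20 ROBO members, with log2 ratios of 2.69 (1.88 to 3.56) and 2.00 (1.17 to 2.84). The chloride channel regulator Clca3b was at 2.00 (1.70 to 2.30) and 1.63 (1.23 to 2.03), and Cnn3, an actin-binding calponin, at 1.96 and 1.75. Ifitm3, an interferon-induced membrane protein used as a crypt stem cell marker, was at 2.63 and 1.31. Clu, the clusterin gene, gave 47 UMIs in 12 WT members against 4 in matched cells (5.11, 3.65 to 7.04) and 21 in 7 ROBO members against 21 (1.56, 0.62 to 2.51). Nrtn, which encodes neurturin, and Vgll4, a cofactor of TEAD factors, were higher in WT members (2.48 and 2.43) but at -0.19 and -0.02 in ROBO, on 8 and 3 UMIs in the members.

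Of the 10 lower genes, 10 had the same direction in ROBO and 9 were at least 2-fold lower there. They included Apoa1, Krt20 (-3.05 and -1.58), a keratin of mature epithelium, and Spink1 (-2.65 and -3.66), a trypsin inhibitor. Agr2, a disulphide isomerase of secretory cells, was at -3.36 (-4.04 to -2.75) in WT and -1.64 (-2.15 to -1.18) in ROBO. Scin, an actin-severing protein, had 0 UMIs in WT members and 70 in matched cells, at least 7.97-fold lower when 3 counts over the members are taken as the floor. Gzma, a protease of cytotoxic lymphocytes, had 0 UMIs in WT members against 313 in matched cells, where 7 cells held them, and 88 UMIs in 1 ROBO member. Over the 5909 genes, 88 were at least 2-fold higher in both, 35.2% of the 250 higher in WT and 24.7% of the 356 in ROBO. The 245 lower in both made up 51.7% of those lower in WT and 49.2% of those in ROBO. The 35.2% and 51.7% stand beside the 6.02% and 8.43% of all genes past 2-fold in ROBO. The 24.7% and 49.2% stand beside 250 higher and 474 lower genes of 5909 in WT.

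Cells with at least 2 Lgr5 UMIs stood further from the matched cells than cells with 1. The 5 markers together were at 3.11 per 10000 in WT matched cells, 8.59 in cells with 1 Lgr5 UMI and 14.4 in those with at least 2, and in ROBO at 3.89, 7.17 and 9.02. The wider stem list followed this order at 19.7, 44.4 and 55.8 per 10000 in WT and 20.2, 47.1 and 54.9 in ROBO. Middle and top enterocyte genes ran the other way, at 297, 81.1 and 18.9 in WT and 405, 100.3 and 11.6 in ROBO. A single WT cell held 897 of the 1652 UMIs behind the 81.1, and a single ROBO cell 413 of the 1748 behind the 100.3. Not every gene followed the order. Ascl2 was at 0.654, 1.53 and 1.24 per 10000 over both genotypes, Gkn3 in ROBO at 0.318, 0.918 and 0.618, and goblet genes in ROBO at 81.6, 24.1 and 35.4. Of the 286 goblet UMIs behind this last value, 151 lay in 1 cell and 80 in another. Paneth genes were at 77.9 and 75.8 per 10000 in cells with 1 Lgr5 UMI but at 4.43 and 7.66 in cells with at least 2. A single WT cell held 1448 of the 1587 Paneth UMIs behind the 77.9. In ROBO, 1 cell held 797 and another 309 of the 1321 behind the 75.8. Crypt-type clusters held 85.7% of the WT cells with 1 Lgr5 UMI and 97.1% of those with at least 2, against 76.3% and 84.8% in ROBO. Median depth was 1808 UMIs with 1 Lgr5 UMI and 2591 with at least 2 in WT, and 1888.5 and 1984 in ROBO, and its part in these differences was not tested.

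**Figure D4:**
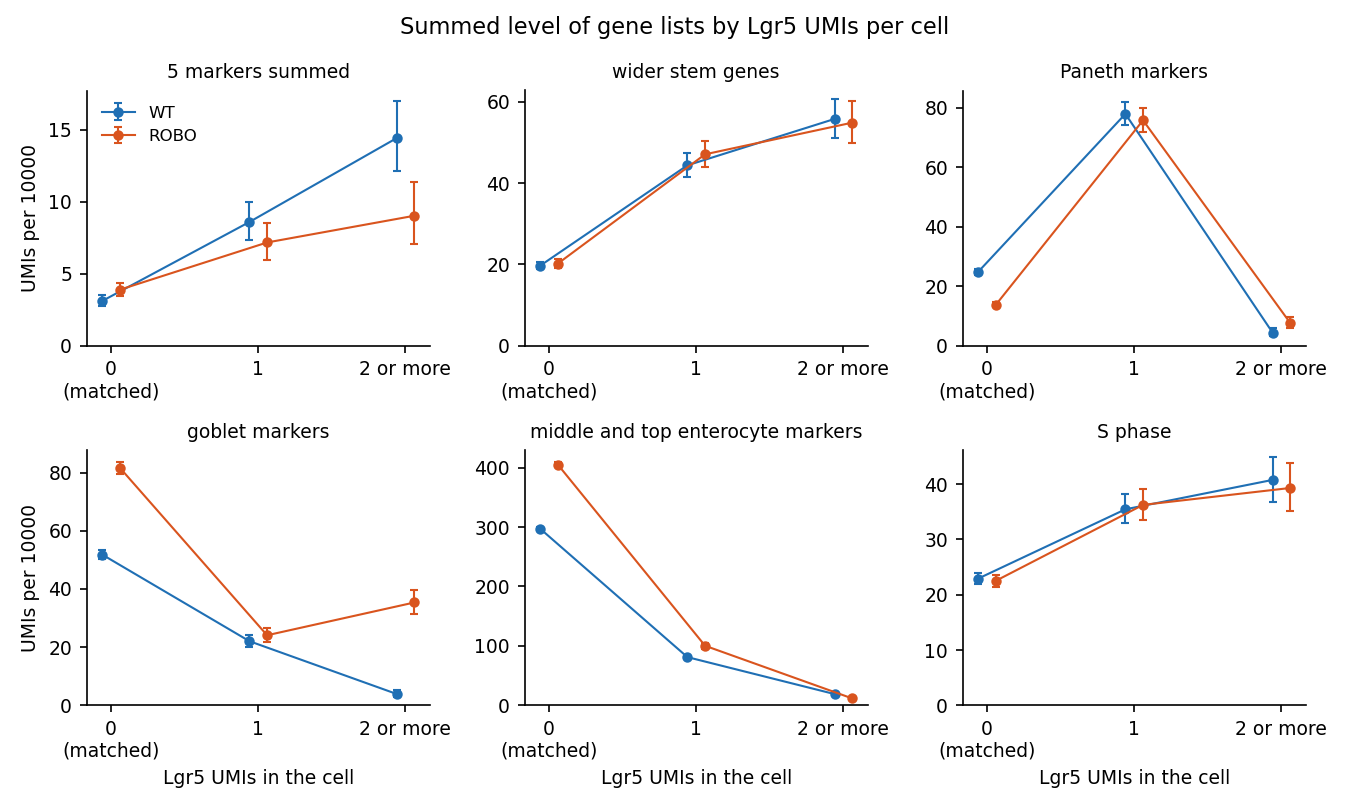
Summed level of 6 gene lists (UMIs per 10000, bars with exact 95% Poisson intervals) in depth-matched cells with 0 Lgr5 UMIs and in cells with 1 or at least 2, for WT and ROBO. The wider stem list goes from 19.7 to 55.8 in WT and the middle and top enterocyte list from 297 to 18.9.

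Lgr5-positive cells were next set beside the Lgr5-negative cell of the same cluster with the nearest depth. The 5 markers were at 10.5 against 4.98 per 10000 in WT (log2 ratio 1.07, 0.79 to 1.37) and at 7.76 against 5.74 in ROBO (0.43, 0.12 to 0.76). At least 1 of the 5 was found in 48.7% of these neighbours in WT and 55.0% in ROBO. The wider stem list was again higher, with 14 of 16 genes higher in WT and 13 of 14 in ROBO, 8 and 6 of them at least 2-fold, at medians of 1.01 and 0.82. By contrast, the medians of S phase genes were 0.18 and 0.07, those of G2/M genes 0.26 and 0.14, and those of ribosomal protein genes 0.05 and 0.04. Ascl2 was at 0.29 and 0.13. The 5 markers did not stand out in each cluster. In cluster 0 they were at 12.6 per 10000 in WT members and 4.05 in the other WT cells, and at 9.51 and 5.07 in ROBO, whereas in cluster 3 they were at 10.4 and 6.71 in WT but at 6.99 and 7.05 in ROBO. Members outside the crypt-type clusters had 1.78 per 10000 in WT and 2.96 in ROBO. Over all genes tested, 3.3% were at least 2-fold higher in members and 2.95% lower in WT, and 3.56% and 2.29% in ROBO.

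Comparing ROBO with WT Lgr5-positive cells asks how the stem cells of the RSPO3-expressing epithelium differ, and rests on 1 pooled sample a genotype, so genotype and library cannot be told apart. These members also enter the comparisons above. At least 2-fold higher in ROBO members were 90 of 4099 genes (2.2%) and at least 2-fold lower 78 (1.9%), with a median log2 ratio of 0.01 over all genes. The 5 markers summed were lower in ROBO members at -0.43 (-0.70 to -0.17), at -0.38 (-0.65 to -0.11) in crypt-type members alone and at -0.68 (-1.10 to -0.26) in cells with at least 2 Lgr5 UMIs. In matched Lgr5-negative cells the sum was higher in ROBO, at 0.32 (0.08 to 0.57). In all crypt-type Lgr5-negative cells it was also higher, at 0.32 (0.16 to 0.47), and over all cells it was at 0.09 (-0.03 to 0.21). Gkn3 was at -1.13 (-1.93 to -0.37) in members, with 21 and 54 UMIs in ROBO and WT, and at 1.11 (0.08 to 2.20) in matched cells, on 24 and 13 UMIs. In all crypt-type Lgr5-negative cells Gkn3 was at -0.02 (-0.64 to 0.58), and in all cells at -0.47 (-0.91 to -0.04), so its higher level in ROBO was seen in the matched cells but not in these larger sets. Sfrp5 was at -0.70 (-1.48 to 0.04), Axin2 at -0.32 (-0.70 to 0.06) and Ascl2 at 0.16, all with intervals that include 0. Sfrp5 was lower at -0.90 (-1.75 to -0.10) in crypt-type members and at -1.27 (-2.54 to -0.13) in cells with at least 2 Lgr5 UMIs. The Axin2 and Ascl2 intervals included 0 in both of these sets.

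Over the wider stem list the genotypes were close to equal. The list had a summed log2 ratio of 0.04 (-0.07 to 0.15), with Smoc2 at 0.20 and Slc12a2 at 0.09, and the Wnt list was at -0.14 (-0.30 to 0.02). In members with at least 2 Lgr5 UMIs the Wnt list was lower in ROBO, at -0.27 (-0.53 to -0.01). Rnf43 was lower in ROBO members (-0.58, -1.16 to -0.03, 43 against 76 UMIs) and Hopx was higher (0.44, 0.08 to 0.80, 138 against 120 UMIs). Id3 was at -0.53 (-1.03 to -0.04). Summed ribosomal protein genes were at -0.07 and transiently amplifying markers at -0.07, and the summed G2/M and S phase genes were at 56.6 and 37.2 per 10000 in each genotype.

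Cym, which encodes the milk-clotting protease chymosin, had the lowest upper limit of all genes of which no single cell held most UMIs. WT members held 522 UMIs in 48 cells and ROBO members 101 UMIs in 34 cells, 17.4 against 3.96 per 10000, a log2 ratio of -2.13 (-2.45 to -1.82). A single WT cell held 165 of these UMIs, and without the highest cell of each genotype the ratio was -1.99. Matched Lgr5-negative cells went the other way at 0.52. In WT, Cym was higher in members than in matched cells by 3.14, and in ROBO by 0.49 (0.13 to 0.84). Higher in ROBO members were Cttn, the actin regulator cortactin, with 38 UMIs in 28 cells against 14 in 13 (1.68), and the goblet cell genes Muc2 (1.69) and Tff3 (1.25). Of the WT Muc2 UMIs, 80.8% came from 1 cell. By the same rule Cul4b (2.01), Dnm1l (1.73), Pak1 (1.65), Phgr1 (1.05) and Fabp1 (0.97), the liver-type fatty acid-binding protein, were higher in ROBO members. Besides Cym, those lower were BC064078 (-2.25), Neu1 (-2.04), Usp3 (-1.85), the pseudogene Rps19.ps3 (-1.78), the lamin gene Lmnb1 (-1.72), Lct (-1.28) and the metallothionein gene Mt2 (-0.88). Fabp1 was at -2.77 among cells with at least 2 Lgr5 UMIs, and Lct at 0.57 among crypt-type members, so the direction of these enterocyte genes depended on the members taken. Goblet genes summed stood at 0.77 (0.60 to 0.94) in all members, 0.33 (-0.10 to 0.76) in crypt-type members and 3.18 (2.68 to 3.70) in members with at least 2 Lgr5 UMIs. In this last group, 1 ROBO cell held 151 of the 286 ROBO goblet UMIs and another held 80, against 38 UMIs in all its WT cells. In matched Lgr5-negative cells the goblet sum was also higher in ROBO, at 0.66 (0.60 to 0.71). There Zg16 gave 2355 of the 6165 goblet UMIs in ROBO and 154 of 4565 in WT. A single cell held 53.6% of these ROBO Zg16 UMIs. Muc2 (1.04), Fcgbp (0.60), Clca1 (2.64) and Spdef (1.33) were also higher in ROBO matched cells. Tff3 was at -0.06, and Agr2 (-0.58) and Spink4 (-1.65) were lower. The values in members stand beside the 10 ROBO and 5 WT members of the secretory cluster. The part of these cells in the difference was not tested.

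**Figure D5:**
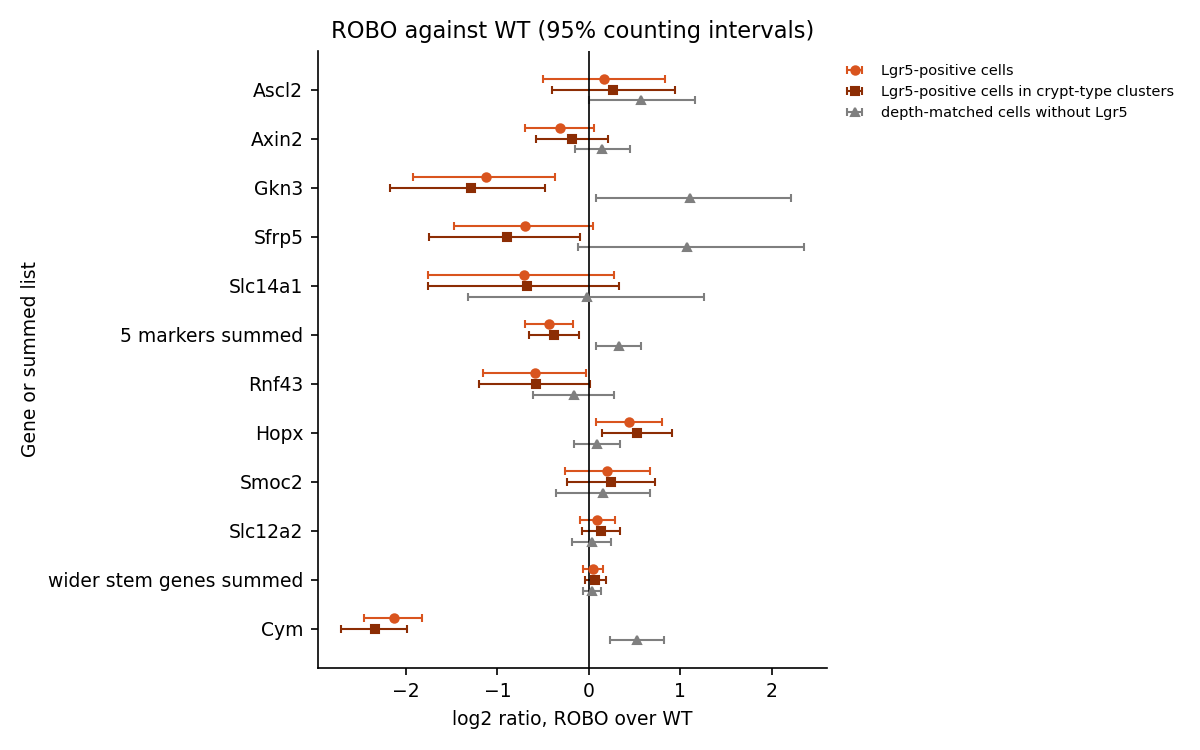
Log2 ratio of ROBO to WT UMIs per 10000 with 95% counting intervals, in Lgr5-positive cells, in crypt-type Lgr5-positive cells and in matched Lgr5-negative cells. Cym, Gkn3 and the 5 markers summed lie below 0 in Lgr5-positive cells and above 0 in matched cells.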

How the data were processed

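Raw UMI counts per gene and cell were used as deposited, in 1 matrix per genotype. The authors made the libraries on the ddSEQ system with the SureCell WTA 3′ kit, 2 cartridges per genotype, and the submitters' processing notes name mm10 and GRCm38; the counting steps and whether strand was used are not given in the sources used here. Near-identical copies (defensins, Clca and ribosomal protein genes, the pseudogene Rps19.ps3) may share reads. The matrices hold 1348 WT cells with 2682127 UMIs (median 1492) and 1249 ROBO cells with 2428435 UMIs (median 1610), no mitochondrial gene, and 0 columns left unused. Replicates could not be separated.

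Members had at least 1 Lgr5 UMI. Each was matched to its 3 nearest Lgr5-negative cells in total UMIs, and UMIs were summed per group and scaled to 10000 with Lgr5 left out of totals. Ratios carry conditional exact 95% intervals, levels exact Poisson and shares Clopper-Pearson intervals, covering counting error only (scipy 1.17.1, numpy 2.4.6, pandas 2.3.3). Genes with at least 30 UMIs over both groups were set against a 2-fold line, with no p-value. The steps were tested on simulated data. Cells were clustered with Seurat 5.3.0 in R 4.3.3 (2000 variable genes without Lgr5, 20 principal components, resolution 0.8, phase scores regressed out), and clusters named by at least 3 markers raised 1.5-fold in at least 10% of cells. Scrublet (scanpy 1.11.5) marked 3 WT cells (0.223%) and 5 ROBO cells (0.400%), of which 0 were members; no cell was removed, and so low a rate says little about doublets. Genes were named from lists, and, for members against matched cells, as the 15 with the highest lower and 10 with the lowest upper limit in WT, with 8 each way for ROBO against WT; genes with over 50% of UMIs in 1 cell were left out (44 in ROBO against WT). The members and lists were chosen with earlier results of these data known. Promoters came from RefSeq (GRCm38.p6) and gene positions from GENCODE M21. Alternatives varied the matching, filter, weighting, thinning, clustering and members.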

Additional observations from a re-analysis of the deposited data

Results flagged for a closer look

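Several genes stood on opposite sides of equality in the genotypes or in the Lgr5-positive and matched Lgr5-negative cells, with intervals that exclude equality on each side. None of these differences was tested, because each genotype is 1 pooled sample. Against matched cells, Dnm1l, a GTPase of mitochondrial fission, was at a log2 ratio of -1.12 in WT and 0.74 in ROBO members, and Spink4, a goblet cell peptide, at -0.93 and 1.00. For Spink4, 1 cell held 83.6% of the UMIs of the WT members and 1 cell 48.3% of those of the ROBO members. By shares of cells, Spink4 did not have opposite directions. It was in 21.0% of WT members against 14.8% of matched cells, and in 21.1% against 19.3% in ROBO.

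For ROBO against WT, the 5 stem cell markers summed were at -0.43 in Lgr5-positive cells and 0.32 in matched cells, and Gkn3 was at -1.13 and 1.11. For Gkn3 the ratio was -0.02 (-0.64 to 0.58) in all crypt-type Lgr5-negative cells and -0.47 (-0.91 to -0.04) in all cells. Cym was at -2.13 and 0.52, and the lactase gene Lct at -1.28 and 0.26. By shares of cells, Lct was not lower in ROBO members, at 7.34% against 6.72% of WT members. It was in 8 members of each genotype, and 1 cell held 47.5% of the UMIs of the WT members. By UMIs, the secretory gene Agr2 went the other way from Cym, at 1.14 in Lgr5-positive and -0.58 in matched cells. So did Spink4 (0.27 and -1.65) and Dmbt1 (0.42 and -0.13), a mucin-like protein of the crypt. The secretory cluster held 10 ROBO and 5 WT members, and the part of these cells in the values of Agr2 and Spink4 was not tested. The enteroendocrine list (-1.60 in Lgr5-positive and 1.11 in matched cells) and the MHC class II list (3.91 and -1.25) also had opposite directions, with 96.8% of the WT and 93.1% of the ROBO member UMIs of the list in 1 cell. The matched values rested on few cells too. In ROBO matched cells, 1 cell held 99.5% of the 568 UMIs of the hormone gene Sst. In WT matched cells, 1 cell held 95.2% of the 21 UMIs of the class II gene H2.Aa and 1 cell 65.6% of the 32 of H2.Ab1.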

How the results depend on the processing

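No paired analysis was possible because cells could not be assigned to the deposited libraries, and for the same reason no replicate could be left out. Of 1130 values recomputed, 981 stayed within 1.5 times (counts) or the main interval (other values). Direction was checked only for ratios whose main interval excluded equality, so other ratios could change sign and still be among the 981. Such checked ratios changed direction in 2 values of the main results and 8 of the others. Leaving out the Scrublet cells, also chosen after seeing the data, touched 0 members. The share of Lgr5-positive cells was 7.86% in WT and 7.53% in ROBO at 1550 UMIs a cell, and 8.83% and 8.73% without thinning. Crypt-type clusters held 64.7% of WT and 55.0% of ROBO members at resolution 0.4, and 81.5% of WT members at resolution 1.2.

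Counts of genes past 2-fold depended on the filter. Against matched cells, a minimum of 15 UMIs gave 659 higher and 816 lower genes in WT and 767 and 849 in ROBO. In the same order, 60 UMIs gave 110 and 304 and 123 and 306, and no filter 1506 and 1029 and 1690 and 1092. At 60 UMIs, those of the 5 markers that passed had a median of 1.35 in WT. Sfrp5 (46 UMIs in members and 10 in matched cells) and Slc14a1 (27 and 13) did not pass. Without matching the counts were 521 and 929 in WT and 600 and 890 in ROBO, and the Notch list turned to a median of -0.044 in WT. With 1 matched cell per member 280 genes were lower in WT and 328 in ROBO, and with equal weight per cell 566 were higher in WT. With members of at least 2 Lgr5 UMIs, 179 genes were higher in WT, 167 higher and 363 lower in ROBO, the middle and top enterocyte medians were -4.01 and -4.61, and Paneth genes turned to -2.46 and -3.04. With members of crypt-type clusters alone, an alternative chosen after seeing the data, Paneth genes were at -1.87 and -2.15 and the WT enterocyte median at -3.45.

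For ROBO against WT members, equal weight gave 176 higher and 140 lower genes, at least 2 Lgr5 UMIs 34 and 40, 15 UMIs 355 and 316, 60 UMIs 19 and 16, and no filter 1084 and 875. The middle and top enterocyte median was -0.49 with at least 2 Lgr5 UMIs and -0.080 with no filter, against 0.96 in crypt-type members. Fabp1 turned to -2.77 with at least 2 Lgr5 UMIs, and in crypt-type members goblet genes turned to -0.063 and Lct to 0.57. The cause of these shifts was not tested, beyond fewer or more genes and cells entering. At this depth, genes under 30 UMIs over both groups were not set against the 2-fold line.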
